A study of Homo sapiens with 12 samples.

Results

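The cytosolic heat shock proteins described here comprise 9 chaperone genes, HSPA1A, HSPA1B, HSPA8, HSPH1, DNAJB1, HSP90AA1, HSP90AB1, HSPB1 and BAG3, and HSF1, the transcription factor that controls them. These 10 genes were chosen by symbol from the 32077 genes of the count table. The rule uses the symbol alone, but the choice was made with earlier results of these data known. RNA-seq was performed on PC3 and DU145, androgen-independent human lines from prostate cancer that carry the label wild type. Each line was cultured for 48 h with vehicle or with 2.5 μmol/L pentamidine, an antiprotozoal diamidine drug that binds the DNA minor groove, and each of the 4 groups held 3 samples. The comparisons ask how pentamidine changed the mRNA of the heat shock system in each line, and whether the lines differed. The labels and the methods of the RNA-seq do not say whether the 3 samples of a group came from separate cultures, so p-values measure the spread between these samples, which may be technical.

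Heat shock proteins bind unfolded or unstable proteins and help them to fold, to be held soluble or to be passed on for degradation. HSP70 proteins work in cycles of ATP hydrolysis that J proteins start and nucleotide exchange factors end, and HSP90 then takes over many signalling proteins, among them kinases and steroid receptors. HSF1 is held inactive by chaperones in unstressed cells, and upon proteotoxic stress it forms trimers that bind heat shock elements, inverted repeats of nGAAn, in the promoters of these genes. Much of its activity is set after translation, so the level of its mRNA is not a measure of that activity.

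The sequences before the start sites are shown first because HSF1 acts through them. The RefSeq promoter table (GRCh38.p14) held 14 start sites for 9 of the 10 members, HSF1 not among them, and the 250 bases before each site were searched on both strands. The searched letters were the cores GAANNTTC and TTCNNGAA, each of 2 inverted nGAAn units, the heat shock element of 3 alternating units, in which these cores overlap by 1 unit, and the CCAAT and TATAAA boxes. A match to the 3-unit element therefore contains a match to each core. The 3-unit element was found before 3 of the 9 members, HSPA8, HSP90AA1 and HSP90AB1, and before 0.557% of all 27305 genes in the table. GAANNTTC was found before 7 of the 9 members and before 7.05% of all genes. TTCNNGAA was found before 3 of the 9 members and before 8.12% of all genes. Stretches around the matches to the 3-unit element and to GAANNTTC follow, 5′ to 3′ on the strand of the gene, with the matched bases in capitals. By the GENCODE 29 annotation the HSPA8 and HSP90AA1 stretches lie in an exon of a longer transcript of the gene, those of HSP90AB1 and DNAJB1 in an intron of one, and those of HSPA1A, HSPA1B and HSPB1 before the gene.
HSPA1A, chr6:31815407-31815463, plus strand, -136 to -80 from the start: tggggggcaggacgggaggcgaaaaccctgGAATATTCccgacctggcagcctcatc
HSPA1B, chr6:31827603-31827670, plus strand, -135 to -68 from the start: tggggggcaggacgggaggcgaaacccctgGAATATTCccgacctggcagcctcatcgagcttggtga
HSPA8, chr11:123062346-123062374, minus strand, -238 to -210 from the start: gcgagcttGAAAGTTCCAGAAcgctgcgg
HSPA8, chr11:123062171-123062199, minus strand, -63 to -35 from the start: cgggccccTTCTGGAAGGTTCtaagatag
HSP90AA1, chr14:102087112-102087140, minus strand, -96 to -68 from the start: gagggttcTTCCGGAAGGTTCgggaggct
HSP90AB1, chr6:44247748-44247865, plus strand, -195 to -78 from the start: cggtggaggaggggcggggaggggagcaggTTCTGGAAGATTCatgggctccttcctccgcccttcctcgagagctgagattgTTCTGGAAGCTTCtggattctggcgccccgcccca
DNAJB1, chr19:14518421-14518504, minus strand, -107 to -24 from the start: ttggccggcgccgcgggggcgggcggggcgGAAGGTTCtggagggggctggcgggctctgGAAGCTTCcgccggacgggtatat
HSPB1, chr7:76302461-76302528, plus strand, -212 to -145 from the start: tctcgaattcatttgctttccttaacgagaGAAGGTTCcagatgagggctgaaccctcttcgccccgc
The windows of HSPA1A and HSPA1B were identical at 235 of 249 aligned bases and carried the same set of matches: 1 GAANNTTC core, 2 CCAAT boxes and 1 TATAAA box. This last box was found before no other member, and before 13.1% of all genes. CCAAT was found before 5 of the 9 members, against 37.0% of all genes. The windows of HSPH1 and BAG3 held none of the searched letters, which says only that these letters are not in these 250 bases.

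**Figure D1:**
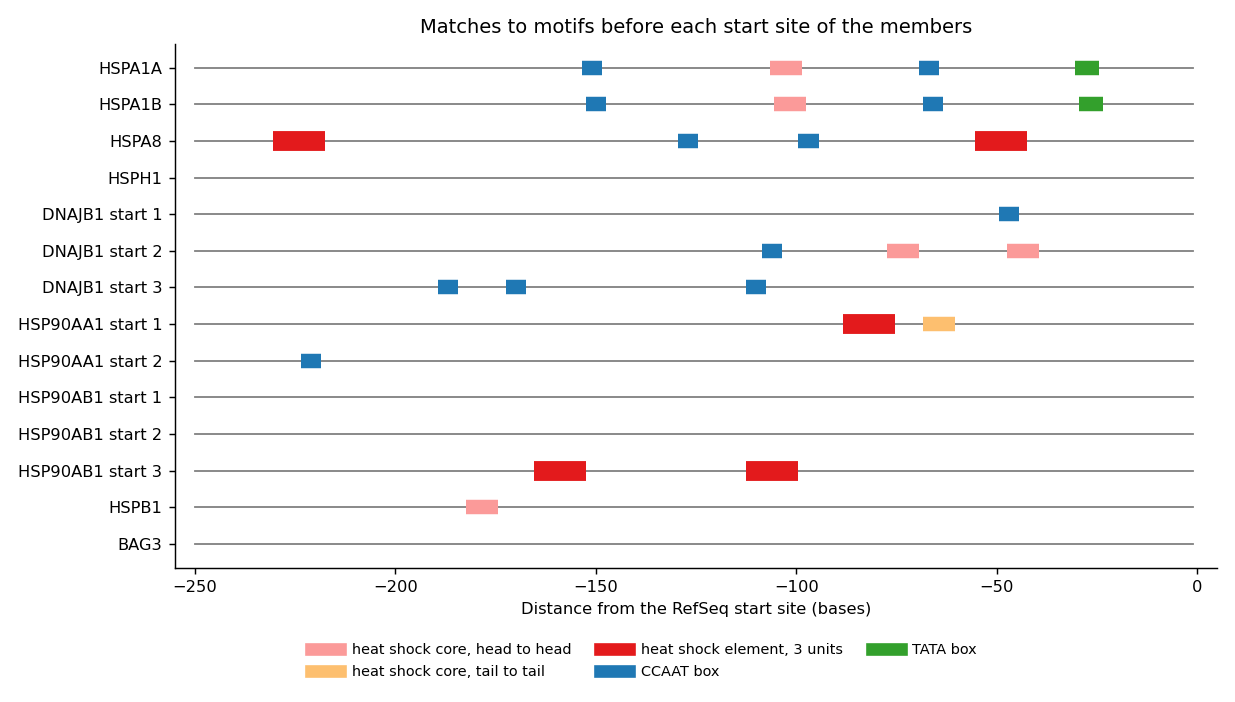
Matches to the searched motifs in the 250 bases before each RefSeq start site of 9 members. The horizontal axis is the distance from the start site in bases, each grey line is 1 start site and the coloured blocks are matches on either strand, with start sites of 1 gene numbered by coordinate. Matches to the 3-unit element lie before HSPA8, 1 start site of HSP90AA1 and 1 of HSP90AB1.

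The 12 libraries held 13514195 to 15131436 counts each, and every member had at least 476 counts in every library. Levels are given as CPM, the count of a gene relative to the total of its library, after TMM scaling. They are shares, so less of an mRNA per cell and more RNA from other genes cannot be told apart, nor can fewer cells of a kind. The share of counts from mitochondria-encoded genes was lower upon pentamidine treatment in both lines, at 2.66 to 2.76% against 3.79 to 3.91% in PC3 and 1.97 to 2.07% against 4.41 to 4.66% in DU145. Library sizes computed without these genes left every call on a member as it was. Markers matched the labels only in part. KRT8 and KRT18 mRNA, which epithelial cells express, stood at 16.1 to 21.4 CPM and 144 to 208 CPM in the libraries labelled PC3 and at 1814 to 2791 CPM and 684 to 940 CPM in those labelled DU145, and EPCAM had 0 to 2 counts in all 12 libraries. CTNNA1, whose gene is deleted in PC3 cells, was at 431 to 576 CPM in the libraries labelled PC3 and at 395 to 425 CPM in those labelled DU145. The names of the lines below are therefore those of the labels. Some of these markers also moved with treatment. In DU145 cells KRT8 fell by 0.56 on the log2 scale (adjusted p = 1.88e-23, edgeR) and KRT18 by 0.39, while in PC3 cells KRT18 rose by 0.35 (adjusted p = 6.00e-04, edgeR) and CTNNA1 by 0.38 (adjusted p = 3.34e-06, edgeR), and their part in the results was not tested. PTPRC and DCN, of leukocytes and fibroblasts, had 0 or 1 count in each library, COL1A1 and COL3A1 had at most 40 and 20 counts, and KLK3, a prostate marker, had 0 to 2.

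In PC3 cells, 9 of the 10 members fell upon pentamidine treatment and none rose. At an adjusted p below 0.05 in the quasi-likelihood test of edgeR over 13861 genes, 43.4% of all genes tested passed, 21.7% lower and 21.7% higher. The median log2 fold change of the members was -0.69, against 0.0046 over all genes tested. The 3 pentamidine samples lay below the 3 vehicle samples without overlap for the same 9 members, as they did for 26.1% of all genes tested. In DU145 cells, 7 members fell, HSPB1 and HSF1 rose and BAG3 did not pass, where 34.0% of 14313 genes passed, 16.8% lower and 17.2% higher. The median there was -0.26, against 0.0085 over all genes. Groups did not overlap for 8 members that were lower and 2 that were higher, against 22.1% and 21.9% of all genes tested. A fall of more than 2-fold, an absolute log2 fold change above 1, was reached in PC3 by HSPA1A and HSPA1B alone and in DU145 by no member, where 4.75% and 2.03% of all genes tested passed that rule in either direction.

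**Figure D2:**
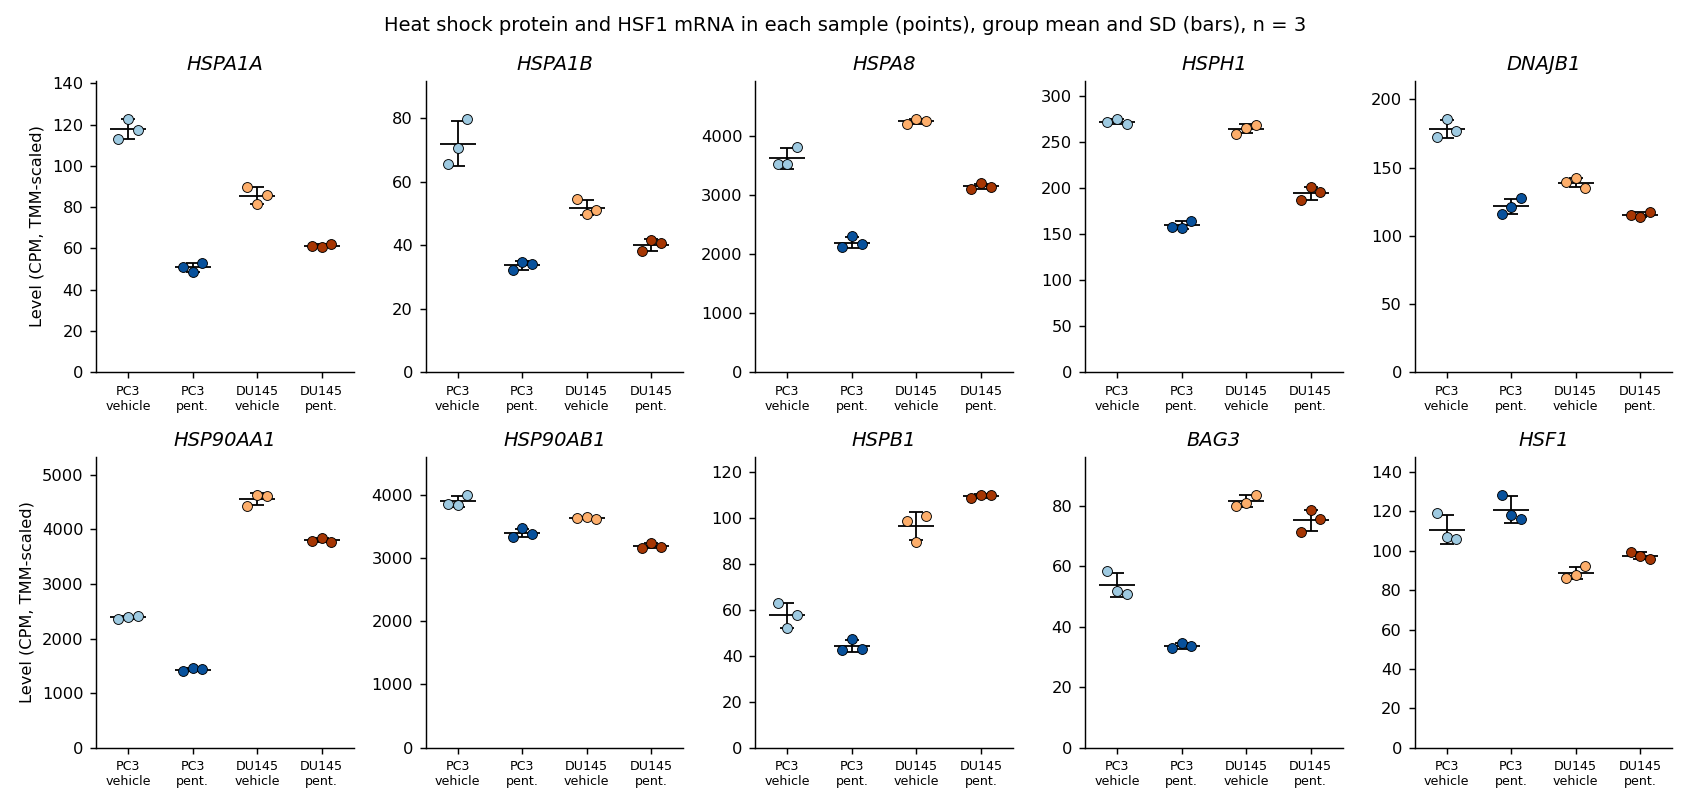
Level of each member in each of the 12 samples, in TMM-scaled CPM on a linear axis from 0. Points are samples, the horizontal bars are group means and the whiskers are SD, with 3 samples per group. Pentamidine samples lie below vehicle samples for every member but HSF1 in PC3, and for every member but HSPB1 and HSF1 in DU145.

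HSF1 (ENSG00000185122, chromosome 8, 144291591 to 144314722, plus strand, GRCh38) is the regulator itself. Its mRNA was at 119, 107 and 106 CPM in the 3 PC3 vehicle samples and at 128, 118 and 116 CPM upon pentamidine treatment, so that the groups overlapped. The log2 fold change was 0.13 (SE 0.060), which did not pass with an adjusted p of 0.083 by edgeR. Without PC3 vehicle replicate 1, the highest of the 3, it was 0.18 and passed (adjusted p = 0.0098, edgeR), and without PC3 pentamidine replicate 1 it was 0.087 (adjusted p = 0.35, edgeR). In DU145 cells HSF1 rose from 86.2, 87.5 and 92.3 CPM to 99.3, 97.4 and 95.8 CPM, without overlap, by 0.14 (SE 0.044, adjusted p = 0.010, edgeR). This call was lost without DU145 vehicle replicate 1, where the change was 0.12 and the adjusted p 0.065 by edgeR. With all 12 samples in 1 edgeR fit the calls swapped, as HSF1 passed in PC3 (adjusted p = 0.0498) and did not in DU145 (adjusted p = 0.0653). HSF1 was thus the one member that did not fall in either line.

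HSPA1A (ENSG00000204389, chromosome 6, 31815464 to 31817946, plus strand) and HSPA1B (ENSG00000204388, chromosome 6, 31827735 to 31830255, plus strand) encode the stress-inducible HSP70. In PC3 cells HSPA1A was at 113, 123 and 118 CPM with vehicle and at 51.1, 48.7 and 53.0 CPM with pentamidine, and in DU145 cells at 89.5, 81.4 and 85.9 CPM and at 60.9, 60.8 and 62.3 CPM. It fell by 1.21 on the log2 scale in PC3 (SE 0.060, adjusted p = 4.81e-11, edgeR), the largest fitted fall of the members there, and by 0.48 in DU145 (SE 0.049, adjusted p = 1.72e-11, edgeR). In DU145 its rank was not stable, since without DU145 vehicle replicate 1 it fell by 0.45 and HSPH1 by 0.46. Differences between members were not tested. HSPA1B went from 71.9 ± 7.17 to 33.6 ± 1.31 CPM in PC3 (SD, n = 3) and from 51.8 ± 2.42 to 40.0 ± 1.82 CPM in DU145. It fell by 1.09 (SE 0.078) in PC3 and by 0.37 (SE 0.060) in DU145. The genes are near-identical copies, and reads that fit both could be split between them in counting, so their separate values are uncertain. Exons of HSPA1B also share 920 bases with the transcript AL671762.1 on the same strand. With the counts of both genes added, the fall was 1.16 in PC3 (adjusted p = 3.05e-11, edgeR) and 0.43 in DU145 (adjusted p = 1.99e-12, edgeR), where HSPH1 fell by 0.44.

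HSPA8 (ENSG00000109971, chromosome 11, 123057489 to 123063230, minus strand) encodes HSC70, the constitutive HSP70 that also uncoats clathrin vesicles and serves chaperone-mediated autophagy. In PC3 cells it was at 3525, 3522 and 3821 CPM with vehicle and at 2122, 2303 and 2166 CPM with pentamidine. The DU145 samples stood at 4205, 4292 and 4260 CPM with vehicle and at 3113, 3201 and 3138 CPM with pentamidine. All pentamidine samples of a line lay below all its vehicle samples. HSPA8 fell by 0.72 (SE 0.050, adjusted p = 4.28e-09, edgeR) in PC3 and by 0.43 (SE 0.027, adjusted p = 1.89e-19, edgeR) in DU145. The counts of its 11 annotated pseudogenes amounted to at most 0.0432% of its own in any library.

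The stress-inducible and the constitutive HSP70 were also compared within each sample. In PC3 cells the summed HSPA1A and HSPA1B counts were 0.0507, 0.0549 and 0.0516 of the HSPA8 count with vehicle and 0.0392, 0.0362 and 0.0402 with pentamidine. These groups did not overlap, with p = 0.1 in an exact two-sided permutation test, the smallest that 3 samples against 3 can give. DU145 cells had a mean ratio of 0.0323 ± 0.00185 in vehicle samples and of 0.0322 ± 0.000530 in pentamidine samples (SD, n = 3), and the groups overlapped (exact permutation p = 0.8).

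HSPH1 (ENSG00000120694, chromosome 13, 31134974 to 31162388, minus strand) encodes HSP105, an HSP110 protein that releases ADP from HSP70. It went from 272 ± 2.79 to 160 ± 4.38 CPM in PC3 and from 264 ± 4.94 to 194 ± 7.21 CPM in DU145 (SD, n = 3). The fall was 0.76 (SE 0.048, adjusted p = 1.06e-09, edgeR) in PC3 and 0.44 (SE 0.035, adjusted p = 4.24e-15, edgeR) in DU145. DNAJB1 (ENSG00000132002, chromosome 19, 14514770 to 14529770, minus strand) encodes HSP40, the J protein that delivers clients to HSP70. Its level was 172, 186 and 177 CPM with vehicle and 116, 121 and 127 CPM with pentamidine in PC3, and 139, 142 and 135 CPM against 115, 114 and 117 CPM in DU145. It fell by 0.55 (SE 0.055) in PC3 and by 0.26 (SE 0.040) in DU145, without overlap between groups in either line. Exons of DNAJB1 share 211 bases, 5.75% of its exonic length, with TECR on the opposite strand. Exons of HSP90AA1 share 197 bases (3.75%) with WDR20, also on the opposite strand. Those of HSF1 share 139 bases with DGAT1 and 133 with AC233992.1 in the same way. Whether counting used the strand is not given in the sources used here, and TECR mRNA itself changed by -0.21 in PC3 (adjusted p = 0.0083, edgeR) and by 0.11 in DU145 (adjusted p = 0.13, edgeR).

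BAG3 (ENSG00000151929, chromosome 10, 119651370 to 119677819, plus strand) encodes a nucleotide exchange factor of HSP70 that directs clients to selective autophagy. PC3 cells held 58.4, 52.0 and 51.0 CPM with vehicle and 32.8, 34.8 and 33.7 CPM with pentamidine. The fall was 0.67 (SE 0.071, adjusted p = 9.13e-07, edgeR). DU145 cells held 80.0, 81.1 and 83.8 CPM with vehicle and 71.5, 78.6 and 75.7 CPM with pentamidine. Although these groups did not overlap, the log2 fold change of -0.11 (SE 0.048) did not pass (adjusted p = 0.063, edgeR). It passed without DU145 vehicle replicate 1 (-0.13, adjusted p = 0.048, edgeR) and without DU145 pentamidine replicate 2 (-0.15, adjusted p = 0.035, edgeR). It was smaller when samples were scaled by library size alone (-0.063, adjusted p = 0.33, edgeR) and without DU145 pentamidine replicate 1 (-0.081, adjusted p = 0.26, edgeR), and over all alternatives the adjusted p ran from 0.035 to 0.49.

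HSP90AA1 (ENSG00000080824, chromosome 14, 102080738 to 102139699, minus strand) encodes HSP90α, the inducible form of cytosolic HSP90, and HSP90AB1 (ENSG00000096384, chromosome 6, 44246166 to 44253888, plus strand) encodes HSP90β, the constitutive form. In PC3 cells HSP90AA1 was at 2358, 2399 and 2414 CPM with vehicle and at 1404, 1459 and 1434 CPM with pentamidine. In DU145 cells it was at 4431, 4638 and 4607 CPM with vehicle and at 3786, 3843 and 3779 CPM with pentamidine. It fell by 0.73 (SE 0.044, adjusted p = 5.21e-10, edgeR) in PC3 and by 0.26 (SE 0.027, adjusted p = 2.55e-11, edgeR) in DU145. HSP90AB1 was at 3854, 3837 and 3999 CPM with vehicle and at 3331, 3468 and 3378 CPM with pentamidine in PC3, and at 3636, 3646 and 3612 CPM against 3163, 3238 and 3177 CPM in DU145. It fell by 0.20 (SE 0.043, adjusted p = 0.0015, edgeR) in PC3 and by 0.18 (SE 0.026, adjusted p = 1.95e-07, edgeR) in DU145, although relative to ACTB, which itself fell by 0.20 in PC3, the change there was 0.0026. In PC3 this was the smallest change among the members that passed.

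Within each sample, the ratio of HSP90AA1 to HSP90AB1 counts was 0.612, 0.625 and 0.604 in PC3 vehicle samples and 0.422, 0.421 and 0.425 in PC3 pentamidine samples. In DU145 it was 1.22, 1.27 and 1.28 with vehicle and 1.20, 1.19 and 1.19 with pentamidine. HSP90AA1 counts thus stayed below those of HSP90AB1 in every PC3 sample and above them in every DU145 sample. The ranges with and without drug were separate in each line, with an exact two-sided permutation p of 0.1 in each, the smallest possible.

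HSPB1 (ENSG00000106211, chromosome 7, 76302544 to 76304295, plus strand) encodes HSP27, a small heat shock protein that holds unfolded proteins without ATP and binds actin filaments. It was the only member whose changes passed the test in opposite directions in the 2 lines. PC3 cells held 62.9, 52.1 and 57.9 CPM with vehicle and 42.6, 47.5 and 42.8 CPM with pentamidine, a fall of 0.38 (SE 0.076, adjusted p = 7.02e-04, edgeR). DU145 cells held 98.6, 89.6 and 101 CPM with vehicle and 109, 110 and 110 CPM with pentamidine, a rise of 0.19 (SE 0.044, adjusted p = 5.93e-04, edgeR). Groups did not overlap in either line.

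Whether the response differed between the lines was tested as an interaction over all 12 samples. It passed for 8 of the 10 members, all with the more negative change in PC3, where 20.4% of the 15226 genes tested passed, 10.3% in that direction and 10.2% in the other. No member differed by more than 1 on the log2 scale, as 2.62% of all genes tested did while passing. The difference in log2 fold change, PC3 minus DU145, was -0.73 for HSPA1A (SE 0.076, adjusted p = 3.78e-08, edgeR) and -0.73 for HSPA1B. It was -0.56 for HSPB1, -0.56 for BAG3 and -0.48 for HSP90AA1, and lay between -0.33 and -0.29 for HSPH1, HSPA8 and DNAJB1. HSP90AB1 differed by -0.01 (95% interval -0.10 to 0.07) and HSF1 by -0.01 (95% interval -0.16 to 0.14), neither passing with adjusted p of 0.88 and 0.96 by edgeR. Across the 10 members, the changes in PC3 and DU145 had a Pearson r of 0.78 and a Spearman rho of 0.82. This is a description over 10 genes, which are not independent replicates, from samples that the 2 comparisons do not share.

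**Figure D3:**
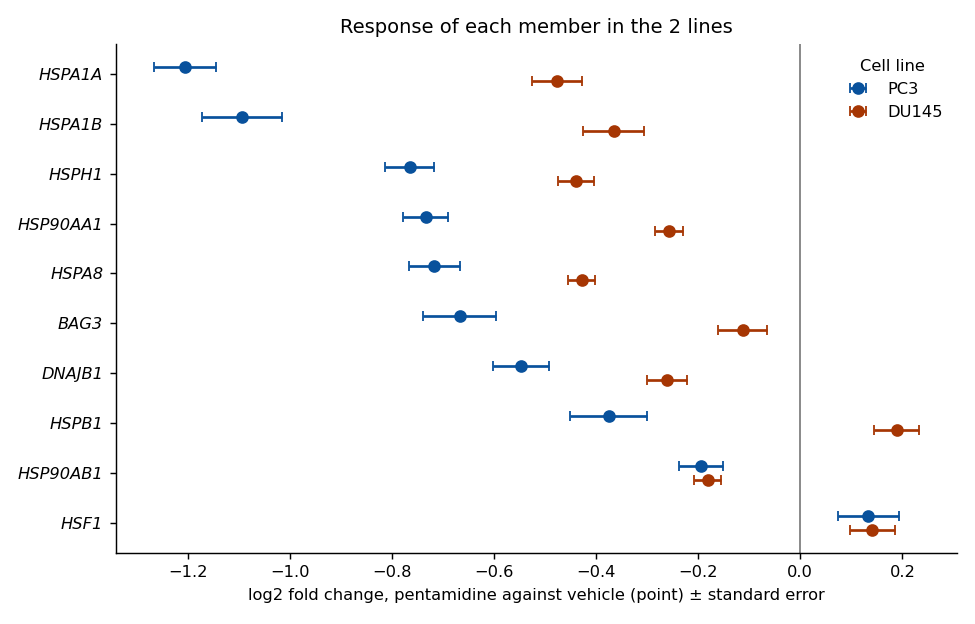
Log2 fold change of each member upon pentamidine treatment in PC3 (blue) and DU145 (brown), with whiskers of 1 standard error from edgeR. Members are ordered by their change in PC3, from HSPA1A with a fall of 1.21 at the top to HSF1 with 0.13 at the bottom. The lines stand apart for 8 members and overlap for HSP90AB1 and HSF1.

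Together, the 9 heat shock proteins made up 1.06, 1.07 and 1.10% of all counts in PC3 vehicle samples and 0.734, 0.767 and 0.745% in PC3 pentamidine samples. In DU145 their share went from 1.26, 1.29 and 1.29% to 1.07, 1.10 and 1.09%. The ranges with and without drug were again separate (exact two-sided permutation p = 0.1 in each, the smallest possible). HSPA8, HSP90AA1 and HSP90AB1 carried most of this mass. The summed level of the 10 members fell by 3185 CPM in PC3, of which HSPA8 made up 44.8%, HSP90AA1 30.1% and HSP90AB1 15.8%. In DU145 it fell by 2410 CPM, of which they made up 45.7%, 31.4% and 18.2%. HSPA1A accounted for 2.1% in PC3 and 1.01% in DU145.

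**Figure D4:**
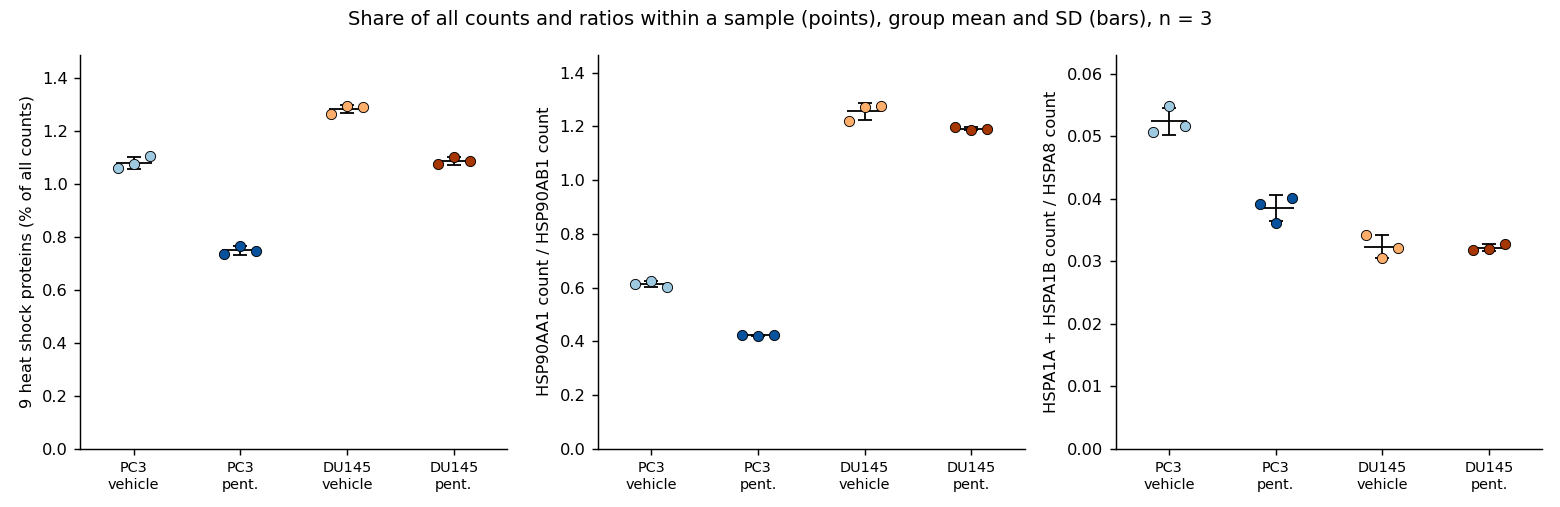
From left to right, the share of all counts taken by the 9 heat shock proteins without HSF1 (percent), the ratio of HSP90AA1 to HSP90AB1 counts, and the ratio of summed HSPA1A and HSPA1B to HSPA8 counts, in each of the 12 samples. Points are samples and bars are the group mean and SD of 3 samples, on linear axes from 0. The share is lower with pentamidine in both lines, and the HSP70 ratio is lower with pentamidine in PC3, at 0.0385 against 0.0524, while the DU145 groups overlap.

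Levels of different members were compared per kb of annotated exon length, the union of the exons of all transcripts, which makes genes with many isoforms such as HSPH1 look lower. By this measure HSP90AB1 was highest in every group, at 1308 ± 29.8 CPM per kb in PC3 vehicle and 1218 ± 5.79 in DU145 vehicle samples (SD, n = 3). HSPA8 and HSP90AA1 followed, at 747 ± 35.5 and 455 ± 5.48 CPM per kb in PC3 vehicle and at 877 ± 9.01 and 869 ± 21.3 in DU145 vehicle samples, where they overlapped. The order depends on the exon lengths used, 2980 bases for HSP90AB1, 4849 for HSPA8 and 5248 for HSP90AA1. Without division by length, DU145 vehicle samples held 4558 CPM of HSP90AA1, 4252 of HSPA8 and 3631 of HSP90AB1. In PC3 vehicle samples HSP90AB1 was highest by CPM as well, at 3897. Upon pentamidine treatment HSP90AA1 stood at 273 ± 5.27 CPM per kb in PC3, below HSPA8 at 453 ± 19.5, and in DU145 at 725 ± 6.67, above HSPA8 at 650 ± 9.42. The other 7 members lay between 12.3 and 67.0 CPM per kb over the 4 groups. In PC3 vehicle samples their order was DNAJB1 (48.5), HSPA1A (47.5), HSPB1 (35.3), HSPH1 (32.5), HSPA1B (28.5), HSF1 (20.8) and BAG3 (19.6), where DNAJB1 overlapped with HSPA1A, HSPB1 with HSPH1, and HSF1 with BAG3. In DU145 vehicle samples it was HSPB1 (59.0), DNAJB1 (37.8), HSPA1A (34.5), HSPH1 (31.5), BAG3 (29.7), HSPA1B (20.5) and HSF1 (16.7), with no overlap between neighbours.

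Vehicle-treated cells of the 2 lines were compared with each other in a test that shares its samples with those above. HSPA1A, HSPA1B, DNAJB1 and HSF1 were higher in PC3, and HSPA8, HSP90AA1, HSPB1 and BAG3 lower, where 65.3% of 14394 genes tested passed, 31.5% higher and 33.8% lower. Groups did not overlap for 6 members that were higher and 4 that were lower, against 34.7% and 34.4% of all genes tested. HSP90AA1 stood at 2390 ± 28.8 CPM in PC3 and at 4558 ± 112 CPM in DU145 (SD, n = 3), a log2 fold change of -0.96 (SE 0.040, adjusted p = 3.35e-12, edgeR). HSPB1 and BAG3 were lower by 0.77 and 0.63 on the log2 scale. HSPA1A, HSPA1B, DNAJB1 and HSF1 were higher by 0.44, 0.45, 0.34 and 0.29. HSPA8 was lower by 0.26, although relative to ACTB, itself lower by 0.26 in PC3, the difference was 0.0052. HSPH1 (0.02, 95% interval -0.07 to 0.10, adjusted p = 0.74, edgeR) and HSP90AB1 (0.08, 95% interval 0.0014 to 0.15, adjusted p = 0.091, edgeR) did not pass. The normal interval of HSP90AB1 leaves out 0 although its unadjusted p was 0.063 by edgeR, so it is too narrow for that test. HSP90AB1 passed when samples were scaled by library size alone (0.16, adjusted p = 8.80e-04, edgeR). Under that scaling HSPH1 stood at 0.098 and did not pass (adjusted p = 0.058, edgeR). HSPH1 was at 0.037 without PC3 vehicle replicate 3 and at 0.0021 without DU145 vehicle replicate 1.

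Other genes of the chaperone system were taken from lists by function. Their counts stand beside the 21.7% of all genes tested that fell and the 21.7% that rose in PC3, and the 16.8% and 17.2% in DU145. Among 8 further cytosolic HSP70 genes, 5 of the 6 tested in PC3 fell and 3 of the 7 tested in DU145, and none rose. HSPA4L, of the HSP110 group, fell in both lines, by 0.64 in PC3 (adjusted p = 2.02e-06, edgeR) and by 0.30 in DU145, and HSPA4 by 0.35 and 0.32. HSPA12B fell by 1.30 in PC3, from 1.61 ± 0.472 to 0.646 ± 0.363 CPM (SD, n = 3), at low counts, and was not tested in DU145. HSPA1L fell by 0.62 in PC3 and changed by -0.14 in DU145 (adjusted p = 0.63, edgeR), and HSPA12A fell by 0.42 in DU145 and was not tested in PC3. HSPA6, a strictly stress-inducible HSP70 looked up after its values were seen, had 1 to 23 counts per library. It was not tested in PC3 and changed by -0.58 in DU145 (adjusted p = 0.24, edgeR). The list medians were -0.63 in PC3 and -0.30 in DU145. Of 15 other cytosolic J proteins, 6 fell and 4 rose in PC3, and 3 fell and 1 rose in DU145, with medians of -0.04 and -0.08. The 4 of 15 that passed in DU145 compare with 34.0% of all genes tested, and the 10 of 15 in PC3 with 43.4%. DNAJA1, the J protein most used with HSC70, went from 551 ± 13.5 to 347 ± 13.1 CPM in PC3 and from 477 ± 17.9 to 356 ± 6.60 CPM in DU145 (SD, n = 3), a fall of 0.66 and of 0.42. DNAJB5 fell by 0.72 in PC3 and changed by -0.0014 in DU145 (adjusted p = 0.99, edgeR), while DNAJB6, which suppresses polyglutamine aggregation, rose there by 0.55 and changed by -0.06 in DU145 (adjusted p = 0.20, edgeR). DNAJC2, a J protein of the ribosome, fell by 0.27 and 0.26, and DNAJA2 fell by 0.20 in DU145 and changed by -0.04 in PC3 (adjusted p = 0.64, edgeR).

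Of 15 HSP90 cochaperones, 9 fell in PC3 and none rose, and 8 fell and 1 rose in DU145, with medians of -0.21 and -0.12. STIP1, which links HSP70 to HSP90, went from 536 ± 23.4 to 359 ± 7.66 CPM in PC3 (SD, n = 3), a fall of 0.57 (adjusted p = 4.33e-08, edgeR), and fell by 0.25 in DU145. AHSA1, the activator of the HSP90 ATPase, fell by 0.57 and 0.36, the immunophilin FKBP4 by 0.57 and 0.41, CHORDC1 by 0.53 and 0.43, and FKBP5 by 0.59 and 0.18. STUB1, the ubiquitin ligase CHIP, was the one that rose in DU145, by 0.19, and changed by -0.03 in PC3 (adjusted p = 0.83, edgeR). It was named after its values were seen. Of 6 other BAG proteins and exchange factors, 2 fell in each line and none rose, with medians of -0.14 in PC3 and 0.0042 in DU145. The 2 of 6 that passed compare with 43.4% of all genes tested in PC3 and 34.0% in DU145. BAG2 was the one shared by both lines, at falls of 0.26 and 0.18. BAG4 fell by 0.24 in PC3 and changed by 0.02 in DU145 (adjusted p = 0.87, edgeR), and BAG1 fell by 0.19 in DU145 and changed by -0.16 in PC3 (adjusted p = 0.17, edgeR). HSPB11 was the only gene tested from the list of other small heat shock proteins, and whether it acts as one was not examined. It fell by 0.44 in PC3 and changed by -0.08 in DU145 (adjusted p = 0.40, edgeR). The other 6 analysed, HSPB6, HSPB7, HSPB8, HSPB9, CRYAA and CRYAB, had 0 to 9 counts per library, and HSPB8, which acts with BAG3, had 0 or 1.

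Of 14 subunits of the TRiC chaperonin and prefoldin, which fold actin and tubulin, 5 fell and 3 rose in PC3, and 8 fell and 2 rose in DU145, with medians of -0.11 in each. TCP1 fell by 0.37 and 0.26, CCT2 by 0.23 and 0.29 and CCT3 by 0.32 and 0.18, while the 3 that rose in PC3 were prefoldin subunits, PFDN2 by 0.64, PFDN4 by 0.31 and PFDN5 by 0.21. In DU145, PFDN5 rose by 0.20, while PFDN2 changed by 0.036 (adjusted p = 0.53, edgeR) and PFDN4 by 0.039 (adjusted p = 0.63, edgeR). PFDN1 fell by 0.33 in DU145 and changed by -0.05 in PC3 (adjusted p = 0.58, edgeR). Among 7 genes of the HSF family and HSF1 partners, 6 were tested in each line. HSF2, HSF4 and HSBP1 passed in PC3 and HSF4 and HSBP1 in DU145, beside 43.4% and 34.0% of all genes tested. HSBP1L1, HSF2BP and HIKESHI did not pass in either line. HSF4 rose in both, from 2.51 ± 0.235 to 4.29 ± 0.650 CPM in PC3 and from 2.63 ± 0.336 to 4.58 ± 0.894 CPM in DU145 (SD, n = 3), at low counts. HSBP1, a small protein that binds HSF1 trimers, fell by 0.20 and 0.17, and HSF2 fell by 0.34 in PC3 and changed by -0.16 in DU145 (adjusted p = 0.17, edgeR).

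A list of 18 further genes that HSF1 is known to activate overlaps with the lists above. Of these, 11 of the 17 tested fell in PC3 and 3 rose, and 10 of 18 fell and 1 rose in DU145, with medians of -0.37 and -0.24. JMJD6 fell by 0.55 and 0.48. SERPINH1, the collagen chaperone HSP47 of the endoplasmic reticulum, went the other way, from 91.6 ± 5.57 to 186 ± 2.20 CPM in PC3 and from 143 ± 4.06 to 192 ± 3.91 CPM in DU145 (SD, n = 3), a rise of 1.02 (adjusted p = 1.21e-10, edgeR) and of 0.43 (adjusted p = 6.43e-14, edgeR). HSPE1 fell by 0.67 in PC3, from 12.9 ± 2.76 to 8.04 ± 0.885 CPM, and changed by -0.20 in DU145 (adjusted p = 0.25, edgeR). This small gene has many near-identical pseudogenes, so its counts are uncertain.

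Chaperones of other compartments were set beside the cytosolic ones. Of 15 chaperones of the endoplasmic reticulum, 11 fell and 2 rose in PC3 and 12 fell and none rose in DU145, with medians of -0.40 and -0.30. SDF2L1 fell by 1.22 and 0.48, MANF by 0.97 and 0.40, CALR by 0.87 and 0.26 and DNAJC3 by 0.23 and 0.44. HSPA5, the HSP70 of this compartment, rose by 0.54 in PC3 and fell by 0.44 in DU145. Of 12 mitochondrial chaperones and proteases, 5 fell and 4 rose in PC3 and 4 fell and 3 rose in DU145, with medians of -0.01 and -0.04. The 9 and 7 of 12 that passed compare with 43.4% and 34.0% of all genes tested. GRPEL2, an exchange factor of mitochondrial HSP70, rose by 1.12 and 0.49, and LONP1, a matrix protease, rose by 0.74 and 0.19. CLPB, a disaggregase, fell by 0.47 and 0.34 and GRPEL1 by 0.23 and 0.24. The differences between lists were not tested.

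**Figure D5:**
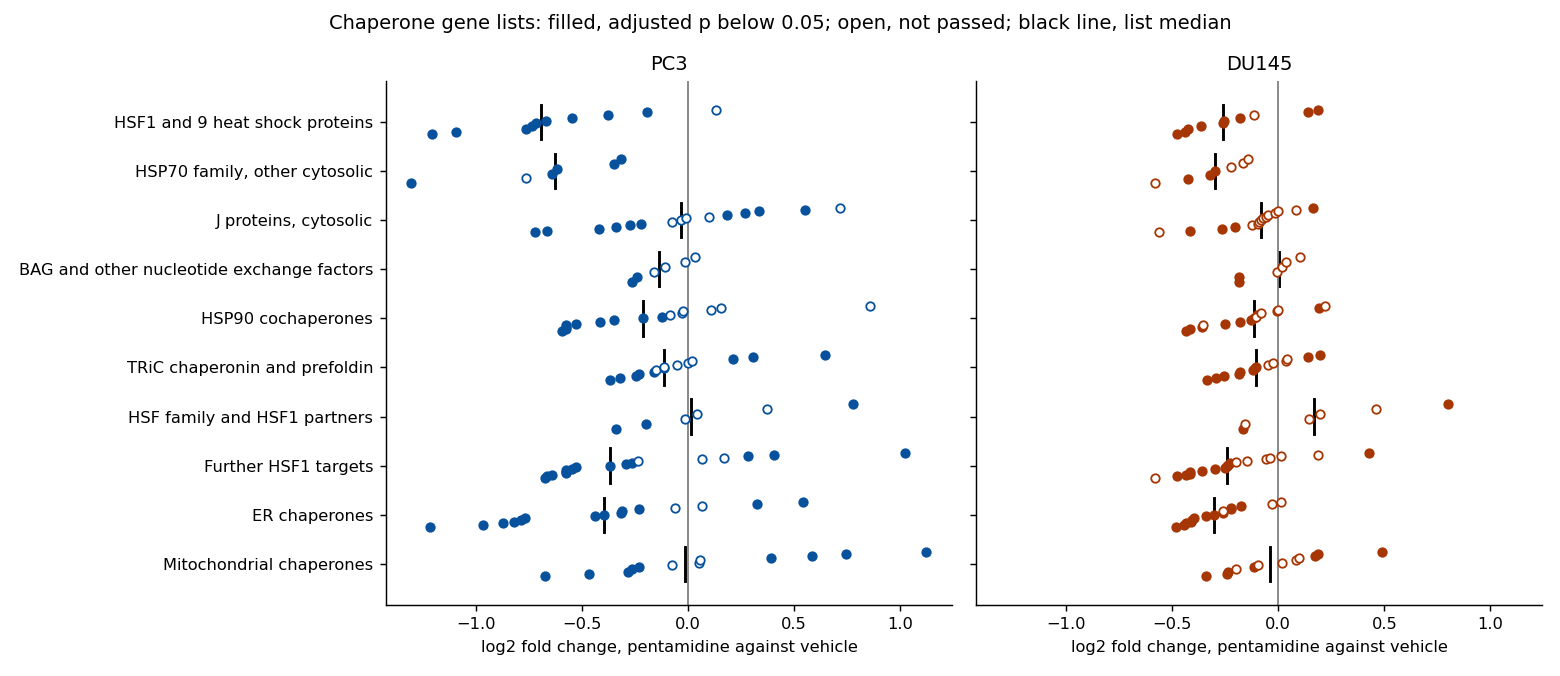
Log2 fold change upon pentamidine treatment of each tested gene of the chaperone lists, in PC3 (left) and DU145 (right). Filled points passed edgeR's test at an adjusted p below 0.05, open points did not, and black lines are list medians. The heat shock members have a median of -0.69 in PC3 and -0.26 in DU145, and the mitochondrial chaperones of -0.01 and -0.04. The list of other small heat shock proteins, with 1 gene tested, is not drawn.

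Genes whose pattern was most like that of 6 inducible members (the mean of HSPA1A, HSPA1B, DNAJB1, HSPH1, HSPB1 and BAG3) were sought among 9398 genes other than the members with a mean of at least 10 CPM. Pearson's r was computed over the 12 samples after each line's mean was taken off, so the points share line, treatment and libraries, and it is a description only. The 5 highest were CALR (r = 0.996), MCM10 (0.995), HMGA2 (0.995), ANLN (0.994) and PDIA4 (0.994). Of the members outside the 6, HSP90AA1 had 0.994, HSPA8 0.966, HSP90AB1 0.892 and HSF1 -0.687. Within the 6 the values ran from 0.658 for HSPB1 to 0.992 for HSPA1A. Each of these 6 is part of the mean it was compared with, so its value is not comparable with those of other genes. CALR and PDIA4 are chaperones of the endoplasmic reticulum, MCM10 is a DNA replication factor, ANLN is a protein of the cleavage furrow and HMGA2 is a chromatin protein. These 5 genes all fell in both lines, by 0.82 to 1.26 in PC3 and by 0.26 to 0.46 in DU145.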

How the data were processed

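Poly(A) RNA of the 12 samples was sequenced on the Illumina platform, and per the submitters' processing notes the authors aligned reads with HISAT2 2.1.0 to GRCh38 and tested with DESeq 1.18.1. The counter, its annotation and its strand setting are not given in the sources used here. The deposited table of read counts per gene was used for all main results. Of its 33595 entries with an Ensembl ID, 32077 were kept once entries with the same name and the same counts in all samples were counted as 1, and 44 broken lines hold no counts. A second deposited table, named by the authors as FPKM, holds CPM: 100% of its 384876 values equal the count divided by the sample's total on the CPM scale, within a relative difference of 0.001%. It was used for the limma alternatives alone. The authors' own fold changes and p-values, in further tables, were not used.

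Each line was fitted alone, since the study compared groups in pairs, with TMM scaling, edgeR's filter at a minimum count of 10, glmQLFit and glmQLFTest (edgeR 4.0.16, R 4.3.3) and Benjamini-Hochberg adjustment over all genes tested, passing at an adjusted p below 0.05. The difference between lines was fitted on all 12 samples. Levels are CPM scaled by TMM over the 12 samples. The code was tested on simulated data with 200 changed genes. Ratios and shares were compared with exact two-sided permutation tests, which cannot go below 0.1 here. Intervals of 95% are normal intervals from the standard error. They ignore the limited degrees of freedom, so they are narrower than intervals from the edgeR test would be. Alternatives were DESeq2 1.42.0, limma 3.58.1 with pseudocounts of 1 and 0.1, other scalings and filters, stricter thresholds, a replicate block and leaving out each sample, and, chosen after the data were seen, adding pseudogene counts to the parent gene. Replicates differed by more than sampling noise (mean chi-square per gene 1.72 to 7.30 over the pairs within groups).

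The members and lists were chosen with earlier results of these data known. All members are named. From each pathway list, the rule named up to 3 tested genes per line, those with the largest change among the passing ones whose higher group had no sample under 10 counts. Further genes fell outside this rule: HSPA4, HSPA6, FKBP4 and CHORDC1 in PC3, FKBP5, STIP1 and DNAJB6 in DU145, STUB1, CCT2 in PC3, PFDN4, PFDN5, HSF2 in DU145, HSBP1L1, HSF2BP, HIKESHI, JMJD6 in PC3, MANF and CALR in DU145, HSPA5 in PC3, the small heat shock proteins at 0 to 9 counts and, for each gene named in 1 line, its value in the other. Promoter sequences are from RefSeq (GRCh38.p14). TMPRSS2, CD3E, HSPB2 and HSPB3 were not analysed here. Python 3.11.15 and matplotlib 3.10.9 were used.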

Additional observations from a re-analysis of the deposited data

Results flagged for a closer look

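The fall upon pentamidine treatment was larger in PC3 than in DU145 cells, or turned to a rise in DU145 for HSPB1, by a test of the difference itself (edgeR, interaction over 12 samples, adjusted p below 0.05) for 8 members. The log2 fold change in PC3 minus that in DU145 was -0.7289 for HSPA1A, -0.7272 for HSPA1B, -0.5646 for HSPB1 and -0.5557 for BAG3. It was -0.4768 for HSP90AA1, -0.3258 for HSPH1, -0.2889 for HSPA8 and -0.2856 for DNAJB1. HSPA1A and HSPA1B are near-identical, and their summed counts gave -0.73 (adjusted p = 7.98e-09, edgeR). All 8 differences kept their sign and passed in every alternative that was tested at an adjusted p below 0.05, with the highest adjusted p, 0.011, for DNAJB1. KRT8 counts were 238 to 307 in the libraries labelled PC3 and 25835 to 38812 in those of DU145, while CTNNA1 counts were 5533 to 8545 over both. The part of these marker levels in the difference was not tested.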

How the results depend on the processing

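Across DESeq2, limma, other scalings and filters, added pseudogene counts and each sample left out, the 9 falls in PC3 and the 7 falls in DU145 kept their direction and passed. Relative to ACTB, HSP90AB1 in PC3 (0.0026) and HSPA8 between vehicle-treated lines (0.0052) turned direction, as ACTB itself differed. The same scaling moved other members by over 1.5 times, in PC3 HSPB1 to -0.18, DNAJB1 to -0.35 and HSF1 to 0.33, in DU145 DNAJB1 to -0.17, HSP90AA1 to -0.17, HSP90AB1 to -0.09, BAG3 to -0.03 and HSF1 to 0.23, and between vehicle-treated lines HSPA1A to 0.70, HSPA1B to 0.71, DNAJB1 to 0.60, HSF1 to 0.55, HSPH1 to 0.28, HSP90AB1 to 0.34, HSPB1 to -0.51 and BAG3 to -0.37. Members higher in PC3 were 1, HSF1, with all 12 samples in 1 fit and 0 to 1 with a sample left out, the 1 being without PC3 vehicle replicate 1. Those higher in DU145 were 1 with all 12 samples in 1 fit and at an adjusted p below 0.01, and 1 to 2 with a sample left out, the 1 being without DU145 vehicle replicate 1. With an absolute log2 fold change above 1 required, 2 members were lower in PC3 and 0 were lower and 0 higher in DU145. Under that rule 0 were higher and 0 lower in PC3 against DU145 vehicle samples, where HSP90AA1 came closest at -0.96, and 0 differed in response. Genes over the whole table numbered 658, 290, 2768 and 399 in place of 6010, 4860, 9405 and 3112. At an adjusted p below 0.01, 1996 genes differed in response. The differences in response of HSF1 and HSP90AB1, near 0, changed sign: 0.0065 and 0.0015 with DESeq2, 0.0065 and 0.0015 with RLE size factors, 0.0035 for HSF1 with no filter, and with a sample left out -0.0545 to 0.0521 for HSF1 and -0.0277 to 0.0104 for HSP90AB1, and the cause was not tested. HSP90AB1 was higher in PC3 than in DU145 vehicle samples with limma (0.16), without a filter (0.09), in 1 fit (0.10) and without PC3 vehicle replicate 1 (0.10) or 2 (0.10).

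Samples with the same replicate number did not deviate together (correlations of -0.07 to 0.04), so the numbers were not taken to pair them. With a replicate block, 9 members were lower and 0 higher in PC3, 7 and 2 in DU145, 4 higher and 4 lower between vehicle-treated lines and 8 differed in response, and no call on a member changed. No member had fewer than 476 counts in any library, and each group had 3 samples.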
